A study of Mus musculus with 16 samples.

Results

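The genotype effect that sham-operated and partially hepatectomised livers share was estimated by setting 8 PparaΔHep arrays against 8 Ppara fl/fl arrays, with the operation as a covariate. All 16 arrays of the series and all 30142 genes with a probe set of 1 symbol entered the comparison. In livers lacking hepatocyte Ppara, 56 genes were lower and 2 were higher at an adjusted p below 0.05. The lower genes included enzymes and carriers of the carnitine shuttle and of mitochondrial and peroxisomal fatty acid oxidation, the Cyp4a omega-hydroxylases, and the droplet proteins Plin5 and Fitm1. Among the 56, the median difference between PparaΔHep and fl/fl was -0.65 on the log2 scale. Differences ran from -4.32 for Cyp4a14 to -0.16 for Esrrg, a gene at the level of the negative controls.

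The arrays form 4 groups of 4, all of mouse liver taken 12 h after an operation: Ppara fl/fl after sham, PparaΔHep after sham, Ppara fl/fl after partial hepatectomy (PHx), and PparaΔHep after PHx. In PHx a part of the liver is cut away and the remnant regrows, whereas sham surgery leaves the organ whole. Ppara fl/fl mice carry Ppara alleles flanked by loxP sites and served as wild type, while PparaΔHep mice have lost a working Ppara in hepatocytes, so that other liver cells keep it. The labels give neither the driver of the recombinase, nor age, sex or feeding, nor whether each array came from a separate mouse. The p-values therefore reflect the spread among the arrays, which may be partly technical. The 12 h point was chosen, per the labels, because fat accumulates in the liver after PHx.

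PPARα is a nuclear receptor that is activated by fatty acids and, with RXR, binds DNA at paired half-sites in front of genes of fatty acid use. In hepatocytes its best known targets import fatty acids, pass them as carnitine esters into mitochondria, oxidise them there and in peroxisomes, hydroxylate them at the omega end, and coat lipid droplets. Loss of hepatocyte PPARα in mice is known for lower expression of these genes and for fat in the liver during fasting.

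Control probe sets overlapped between the genotypes. The median of 5222 negative control probe sets was 1.96 ± 0.09 in fl/fl and 2.00 ± 0.06 in PparaΔHep (SD, n = 8 each, log2), and the ranges overlapped. The 14 measured hepatocyte markers averaged between 9.64 and 9.97 on every array, against 2.73 for the median gene. PHx arrays differed among themselves more than sham arrays: along the first component of within-group deviations, which held 33.0% of the variance, PHx arrays ran from -27.0 to 23.0 and sham arrays from -7.24 to 3.78. On that axis 2 arrays of each genotype lay on either side. The sample titles also give each array a number of unstated meaning, and the numbers fall into 4 runs that share all but the last digit, of which 3 held PHx arrays: 1 with 3 arrays between 14.5 and 22.3, 1 with a single array at -10.5 and 1 with 4 arrays from -27.0 to 23.0. With the run as a block (added after seeing the data), 44 genes passed the pooled test, 40 lower and 4 higher. All 58 kept their sign, and 40 kept their call. The calls lost included Acadl and Ephx2 (adjusted p = 0.0562 each), Retsat and Mtmr11 (0.0781 each), Igfbp2 (0.102), Cyp4a14 (0.116), Hacd3 (0.0689) and Nceh1 (0.0562). Without the farthest PHx array of each genotype (fl/fl array 3 and PparaΔHep array 4, a setting chosen after seeing the data), 95 genes passed instead of 58, of which 72 were lower and 23 higher, and 57 of the 58 were among them.

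The pooled comparison called 58 genes, 0.192% of those tested. Lower genes made up 0.186% and higher genes 0.00664%. At an unadjusted p below 0.05 the counts were closer: of 1658 genes (5.5%), 931 were lower (3.09%) and 727 higher (2.41%). The difference lay below 0 in 55.1% of all genes and in 48.3% of those averaging at least 4, and the median of all genes was -0.01. Of the 56 lower genes, 12 differed by at least 2-fold and 34 by at least 1.5-fold. Most called genes sat at high levels, with a median of 6.16 over the arrays, and 72.4% of them averaged at least 4 against 30.8% of all genes. Esrrg averaged 1.99, at the level of the negative controls (medians of 1.96 in fl/fl and 2.00 in PparaΔHep). Its call was kept in only 7 of 16 leave-one-out fits.

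**Figure D1:**
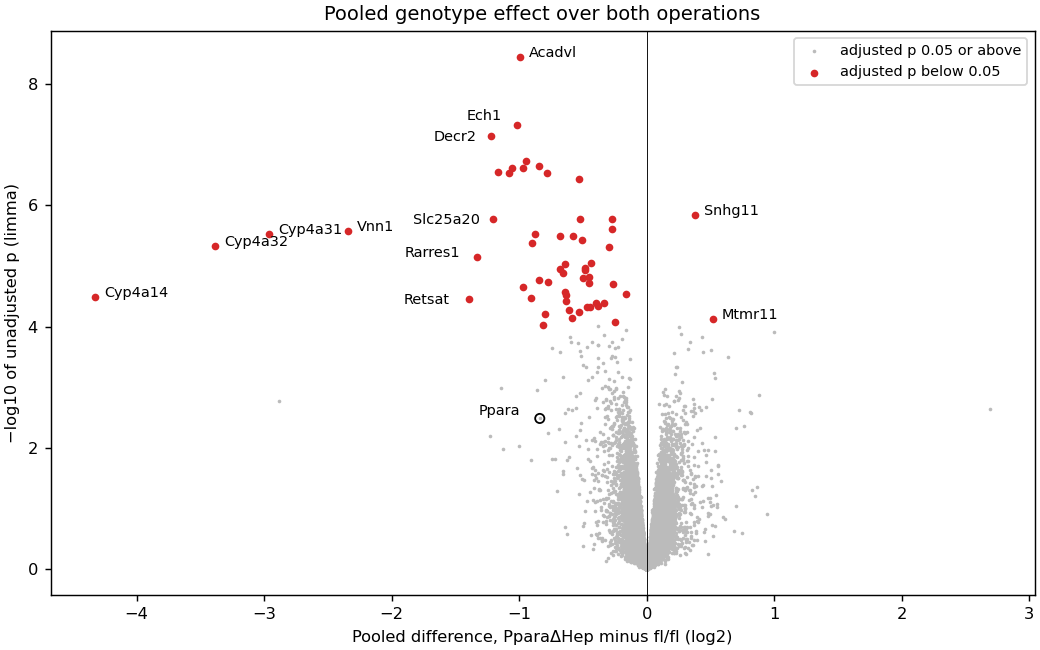
Pooled difference between PparaΔHep and fl/fl (x axis, log2) against the −log10 of limma's unadjusted p (y axis) for 30142 genes, with the 58 called genes in red and Ppara circled. The 56 lower genes fill the left arm, with Cyp4a14 farthest out at -4.32, and only Snhg11 and Mtmr11 are called on the right.

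In 46 of the 56 lower genes the genotypes did not overlap within either operation, a property found in 67 genes in all (0.222%). In 27 of the 56, every PparaΔHep array lay below every fl/fl array whatever the operation, as it did in 31 genes in all (0.103%). Both higher genes were without overlap in both operations, a property of 7 genes in all (0.0232%). These separations rest on the same values as the test and only describe it. Averaged over the 56 genes, fl/fl arrays ran from 5.89 to 6.44 and PparaΔHep arrays from 5.0 to 5.51.

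**Figure D2:**
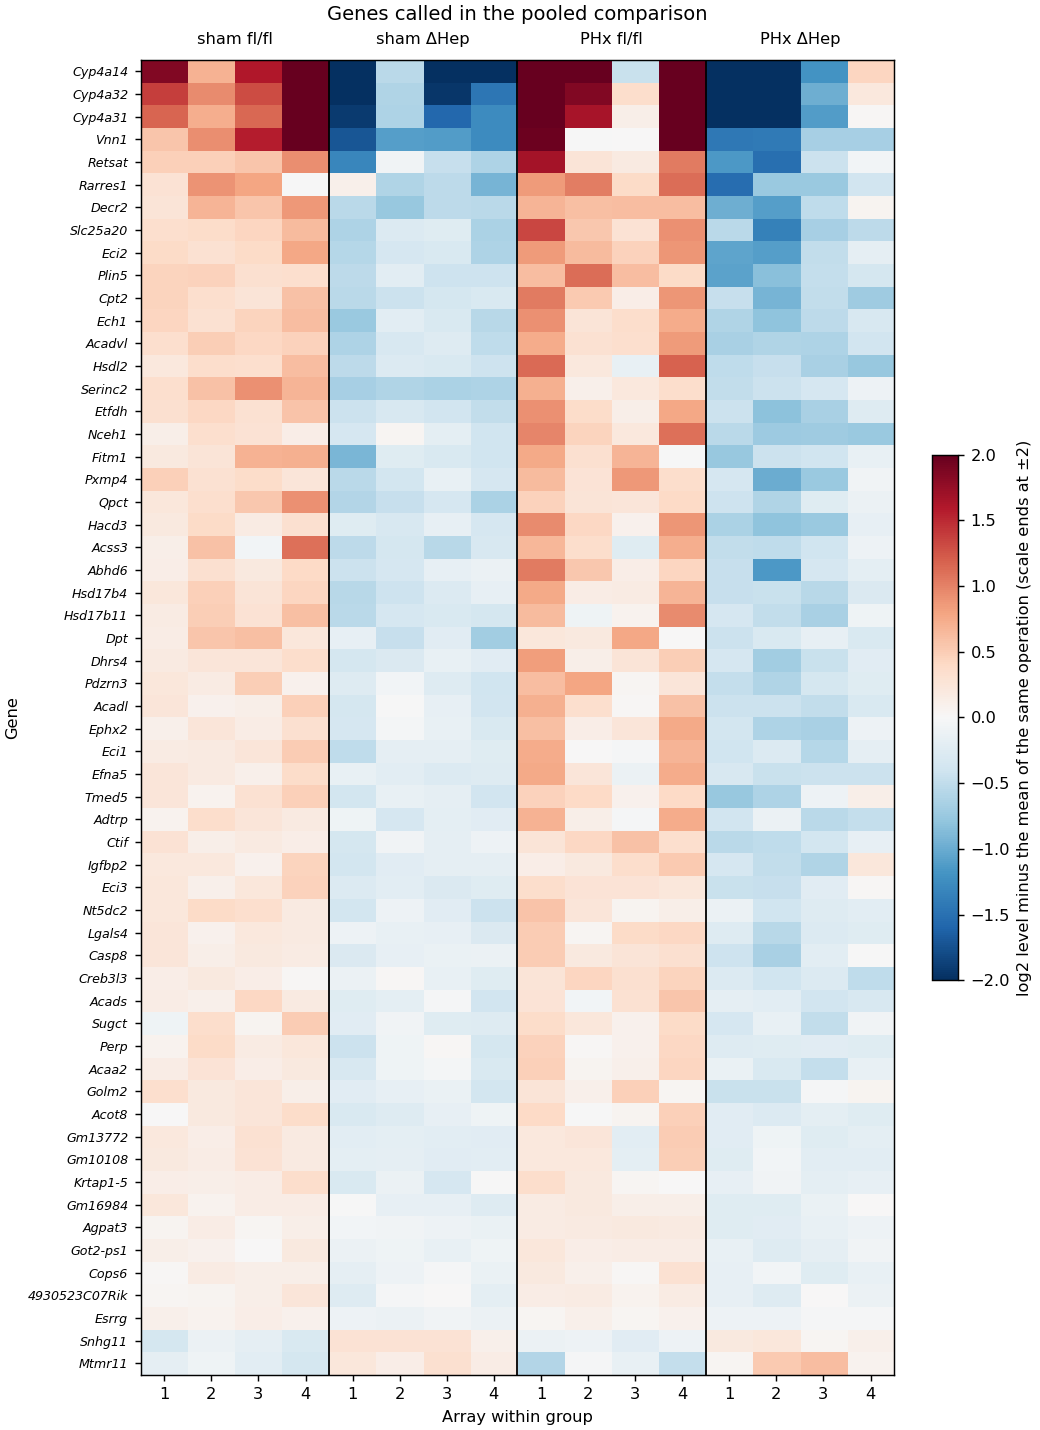
The 58 genes called in the pooled comparison (rows, ordered by difference) on the 16 arrays (columns, 4 per group), coloured by log2 level minus the mean of the same operation, with the scale ending at ±2. The fl/fl arrays are red and the PparaΔHep arrays blue in nearly all rows. PHx fl/fl arrays 2 and 3 and PHx PparaΔHep arrays 3 and 4 are paler in several rows, Retsat among them. In the Cyp4a14 row PHx fl/fl array 3 is pale blue and PHx PparaΔHep array 4 pale red, each on the side of the other genotype.

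Ppara itself, the disrupted gene, stood in sham livers at 6.45, 7.02, 6.99 and 6.77 in fl/fl and at 6.29, 6.43, 6.43 and 6.05 in PparaΔHep. In PHx livers it stood at 6.97, 6.08, 5.68 and 7.24 in fl/fl and at 6.26, 5.02, 5.28 and 4.70 in PparaΔHep. After sham every PparaΔHep array lay below every fl/fl array, and after PHx PparaΔHep array 1 exceeded fl/fl arrays 2 and 3. The pooled difference was -0.84 ± 0.24 (SE), with an adjusted p of 0.422 in limma over all genes. An exact two-sided permutation test of this single gene, exchanging arrays within each operation, gave p = 0.00776 (4900 permutations, smallest possible 0.000408). Where the probe set lies relative to the disrupted part of the gene is not given in the sources used here, and in whole liver fewer cells of a type and less RNA per cell cannot be told apart.

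The carnitine shuttle carries long-chain fatty acids into mitochondria. Of 11 measured genes on its list, 2 fell, 10 differences were below 0 and 4 had an unadjusted p below 0.05 on the lower side. Over all genes 0.186% were called lower, 55.1% were below 0 and 3.09% had such a p, and the counts of each list below stand beside these shares. The pooled median of the list was -0.32, against -0.01 for all genes, and it was -0.03 after sham and -0.73 after PHx. Cpt2, the inner-membrane carnitine palmitoyltransferase, stood at 7.62, 7.50, 7.43 and 7.75 in sham fl/fl, 6.63, 6.73, 6.82 and 6.86 in sham PparaΔHep, 8.09, 7.57, 7.19 and 7.94 in PHx fl/fl and 6.59, 6.13, 6.57 and 6.35 in PHx PparaΔHep. All 8 PparaΔHep arrays thus lay below all 8 fl/fl arrays, and the pooled difference was -1.05 ± 0.12 (SE, adjusted p = 8.9e-04), a level 2.07-fold higher in fl/fl.

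Slc25a20, the carnitine-acylcarnitine translocase, stood at 7.32, 7.35, 7.42 and 7.62 in sham fl/fl and 6.37, 6.72, 6.75 and 6.35 in sham PparaΔHep. After PHx its levels were 8.36, 7.57, 7.32 and 7.94 in fl/fl and 6.48, 5.68, 6.36 and 6.51 in PparaΔHep. The arrays again separated fully by genotype, and the gene fell by 1.21 ± 0.16 (log2, adjusted p = 0.0034). Cpt1a, the outer-membrane transferase that sets the rate of entry, differed by -0.27 ± 0.24 (adjusted p = 1.0), made of 0.19 after sham and -0.73 after PHx. The 2 transferases of short and medium acyl groups were likewise not called, Crat at -0.26 ± 0.20 and Crot at -0.32 ± 0.18.

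**Figure D3:**
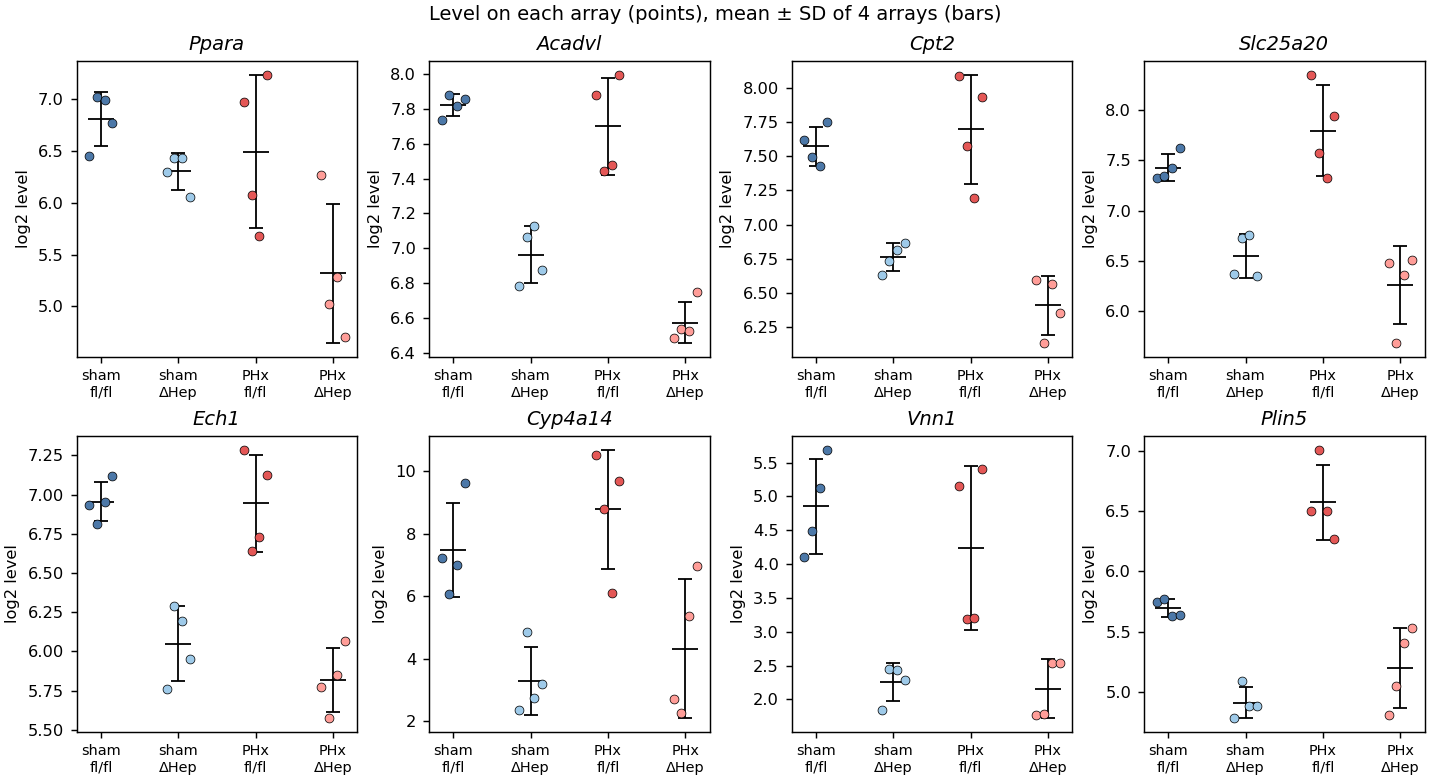
Log2 levels of 8 genes on each array (points) with the mean ± SD of 4 arrays per group (bars) for sham and PHx livers of both genotypes. Acadvl, Cpt2, Slc25a20, Ech1, Vnn1 and Plin5 separate the genotypes fully within each operation, whereas Ppara and Cyp4a14 overlap after PHx.

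Mitochondrial beta-oxidation shortens the acyl chain, and 6 of its 18 measured genes fell, 16 differences were below 0 (55.1% of all genes) and 12 had an unadjusted p below 0.05 on the lower side (3.09% of all genes). Acadvl, very long-chain acyl-CoA dehydrogenase, had the smallest p of all genes. It stood at 7.74, 7.88, 7.81 and 7.86 in sham fl/fl and at 6.78, 7.07, 7.13 and 6.88 in sham PparaΔHep. After PHx it stood at 7.88, 7.44, 7.48 and 8.0 in fl/fl and at 6.49, 6.54, 6.53 and 6.75 in PparaΔHep.

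The lowest fl/fl array exceeded the highest PparaΔHep array for Acadvl, and the pooled difference was -0.99 ± 0.09 (SE, adjusted p = 1.1e-04). Etfdh, which passes electrons from acyl-CoA dehydrogenases to ubiquinone, fell by 0.95 ± 0.11 (adjusted p = 8.9e-04). The dehydrogenases for long and short chains fell less, Acadl by 0.64 ± 0.10 (adjusted p = 0.010) and Acads by 0.48 ± 0.08 (adjusted p = 0.0111). Acaa2, the thiolase, and Eci1, an enoyl-CoA isomerase, were also called and are named after their values were seen, with differences of -0.45 ± 0.07 (adjusted p = 0.0139) and -0.63 ± 0.11 (adjusted p = 0.0248). The Eci1 call was lost on leaving out sham fl/fl array 4, sham PparaΔHep array 1 or 4, or PHx PparaΔHep array 1 or 3.

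Genes of the same list that missed the threshold included both subunits of the trifunctional protein, Hadha at -0.54 ± 0.11 (adjusted p = 0.0787) and Hadhb at -0.59 ± 0.12 (adjusted p = 0.0774), and the dienoyl-CoA reductase Decr1 at -0.75 ± 0.16 (adjusted p = 0.0854). In each of these the genotypes did not overlap within either operation. Acadm, the medium-chain dehydrogenase, differed by -0.27 ± 0.10 (adjusted p = 0.771). The median of the list was -0.47, with -0.31 after sham and -0.54 after PHx, and over the 23 other settings tried for lists it stayed between -0.50 and -0.42 with 5 to 9 genes called lower.

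Peroxisomes oxidise very long and branched chains, and 4 of 19 measured genes of that list fell, with 16 differences below 0, 13 at an unadjusted p below 0.05 and a median of -0.55, from -0.26 after sham and -0.66 after PHx. Ech1, a dienoyl-CoA isomerase, stood at 6.94, 6.81, 6.96 and 7.12 in sham fl/fl and 5.76, 6.29, 6.19 and 5.95 in sham PparaΔHep. After PHx the levels were 7.29, 6.64, 6.73 and 7.12 in fl/fl and 5.78, 5.57, 5.85 and 6.07 in PparaΔHep, again with no overlap among the 16 arrays. The pooled difference was -1.02 ± 0.11 (SE, adjusted p = 7.0e-04).

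Decr2, the peroxisomal dienoyl-CoA reductase, stood at 7.34, 7.75, 7.63 and 7.94 in sham fl/fl against 6.54, 6.31, 6.55 and 6.53 in sham PparaΔHep. In PHx fl/fl it lay within a narrow band, at 8.18, 8.09, 8.12 and 8.12, whereas PHx PparaΔHep ran through 6.53, 6.40, 7.0 and 7.55. It fell by 1.22 ± 0.13 (adjusted p = 7.0e-04), a 2.33-fold difference in level. Eci2, an enoyl-CoA isomerase, fell by 1.16 ± 0.14 and Hsd17b4, the bifunctional enzyme of branched chains, by 0.78 ± 0.09 (adjusted p = 8.9e-04 for both).

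Ehhadh, the bifunctional enzyme of straight chains, differed by -0.86 ± 0.22 (adjusted p = 0.261), with -0.46 after sham and -1.26 after PHx. The thiolases Acaa1a and Acaa1b stood at -0.47 ± 0.11 (adjusted p = 0.142) and -0.66 ± 0.16 (adjusted p = 0.192). None of the 7 measured ketone body genes was called in limma at the adjusted threshold, and 2 had an unadjusted p below 0.05, 1 in each direction, of which Bdh2 was at 0.25 (adjusted p = 0.312).

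The largest differences belonged to the Cyp4a omega-hydroxylases, which oxidise the far end of fatty acids. Cyp4a14 stood at 7.23, 6.08, 6.99 and 9.62 in sham fl/fl and 2.37, 4.85, 2.75 and 3.19 in sham PparaΔHep. After PHx it ran through 10.53, 8.78, 6.11 and 9.69 in fl/fl and 2.69, 2.27, 5.36 and 6.97 in PparaΔHep. The genotypes were apart after sham, while after PHx PparaΔHep array 4 exceeded fl/fl array 3.

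The pooled difference of Cyp4a14 was -4.32 ± 0.76 (SE, adjusted p = 0.0223). No fold is given, because 4 PparaΔHep arrays, at 2.27 to 2.75, lay near the negative control median of 2.00. Neither operation alone passed, at adjusted p = 0.383 after sham and 0.214 after PHx. The pooled call was lost on leaving out any of 8 arrays: sham fl/fl 4, sham PparaΔHep 1, 3 or 4, PHx fl/fl 1, 2 or 4, or PHx PparaΔHep 1, with adjusted p from 0.0524 to 0.0671. Cyp4a31 fell by 2.96 ± 0.42 (7.78-fold, adjusted p = 0.0046) and Cyp4a32 by 3.38 ± 0.50 (10.4-fold, adjusted p = 0.0058), and both kept their calls without any single array. The Cyp4a genes are near-identical copies and may share probe signal, so that their values are uncertain as separate measurements. Cyp4a12a, a male-biased member of the family, was at -0.06 ± 0.12. Of the 14 measured genes of the omega-oxidation list 3 fell, 10 differences were below 0, 5 had an unadjusted p below 0.05 and the median was -0.09, from -0.07 after sham and -0.20 after PHx.

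Vnn1, a pantetheinase that recycles pantothenate, the precursor of coenzyme A, stood at 4.10, 4.49, 5.13 and 5.69 in sham fl/fl and 1.84, 2.45, 2.43 and 2.29 in sham PparaΔHep. After PHx it split the fl/fl arrays, with 5.16 and 5.40 on arrays 1 and 4 and 3.19 and 3.20 on arrays 2 and 3, and the PparaΔHep arrays were at 1.77, 1.79, 2.54 and 2.54. All PparaΔHep arrays stayed below all fl/fl arrays, and the gene fell by 2.34 ± 0.33 (adjusted p = 0.0046). Its PparaΔHep levels lay near the negative control median of 2.00, so no fold is given. Retsat, retinol saturase, fell by 1.40 ± 0.25 (adjusted p = 0.0233), with all fl/fl arrays between 7.59 and 9.07 and all PparaΔHep arrays between 5.90 and 7.35. Its call was lost without sham fl/fl array 4, sham PparaΔHep array 1 or 4, PHx fl/fl array 4 or PHx PparaΔHep array 1.

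Creb3l3, a liver transcription factor of triglyceride metabolism, and Adtrp, a membrane enzyme that hydrolyses fatty acid esters of hydroxy fatty acids, were the other members called among 46 measured classical targets. Creb3l3 stood at 6.92, 6.98, 6.92 and 6.82 in sham fl/fl, 6.68, 6.81, 6.64 and 6.55 in sham PparaΔHep, 7.20, 7.37, 7.25 and 7.39 in PHx fl/fl and 6.66, 6.54, 6.66 and 6.43 in PHx PparaΔHep. The arrays separated fully, and it fell by 0.49 ± 0.08 (adjusted p = 0.0111). Its difference was -0.24 after sham and -0.73 after PHx, and the unadjusted p of the interaction was 1.4e-04 (adjusted p = 0.286). Adtrp fell by 0.59 ± 0.11 (adjusted p = 0.0397), a call kept in the leave-one-out fits only without array 1 of sham fl/fl or array 3 of PHx fl/fl and lost when array medians were subtracted (adjusted p = 0.0748).

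On the list of classical targets 33 of 46 differences were below 0, 14 had an unadjusted p below 0.05 on the lower side and the median was -0.17, from -0.06 after sham and -0.36 after PHx. Angptl4, a secreted inhibitor of lipoprotein lipase, was at -0.62 ± 0.17 (adjusted p = 0.365), and the hormone gene Fgf21 at -0.31 ± 0.20 (adjusted p = 0.993). Fabp1, the liver fatty acid binding protein, was at -0.60 ± 0.12 (adjusted p = 0.0687). Fabp1 passed without PHx PparaΔHep array 4, without the farthest PHx arrays (adjusted p = 0.0086), with array weights (0.0186) and among genes averaging at least 4 (0.0355). None of the 15 measured genes of fatty acid uptake and activation passed in limma, although 13 were below 0 and 6 had an unadjusted p below 0.05, all lower, and the median was -0.09 after sham and -0.34 after PHx.

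Lipid droplet genes divided into members that fell and members that did not pass. Plin5, a droplet coat protein that ties droplets to mitochondria, stood at 5.75, 5.77, 5.63 and 5.64 in sham fl/fl, 4.79, 5.09, 4.89 and 4.89 in sham PparaΔHep, 6.50, 7.01, 6.50 and 6.27 in PHx fl/fl and 4.82, 5.05, 5.41 and 5.53 in PHx PparaΔHep. Every PparaΔHep array was below every fl/fl array, and the pooled difference was -1.08 ± 0.13 (SE, adjusted p = 8.9e-04). Fitm1, an endoplasmic reticulum protein of droplet formation, fell by 0.90 ± 0.13 (adjusted p = 0.0055).

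Cidec, which fuses droplets, stood between 2.74 and 2.92 on all sham arrays, whereas after PHx the genotypes were apart, with fl/fl from 5.75 to 7.05 and PparaΔHep from 2.99 to 5.27. Its pooled difference was -1.23 ± 0.39 (adjusted p = 0.546), an average of -0.06 after sham and -2.40 after PHx, and the interaction had an unadjusted p of 5.6e-04. Plin2, the main droplet coat of hepatocytes, was at -0.34 ± 0.12 (adjusted p = 0.647). Of the 23 measured droplet and lipolysis genes 2 fell, 16 were below 0, 9 had an unadjusted p below 0.05 on the lower side and 2 on the higher side, and the median was -0.07, from -0.07 after sham and -0.22 after PHx.

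Taking 8 lists of fatty acid use together (uptake, carnitine shuttle, mitochondrial, peroxisomal and omega oxidation, thioesterases, ketone bodies and droplets), 18 of 124 measured genes fell (14.5%, against 0.186% of all genes) and none was called higher in limma. Differences were below 0 in 93 of the 124 (75%), and 51 had an unadjusted p below 0.05 on the lower side against 5 on the higher side. The median was -0.18. PPARα targets were chosen for these lists, with earlier results of the same arrays known, so the counts are a description and not independent evidence of the direction.

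**Figure D4:**
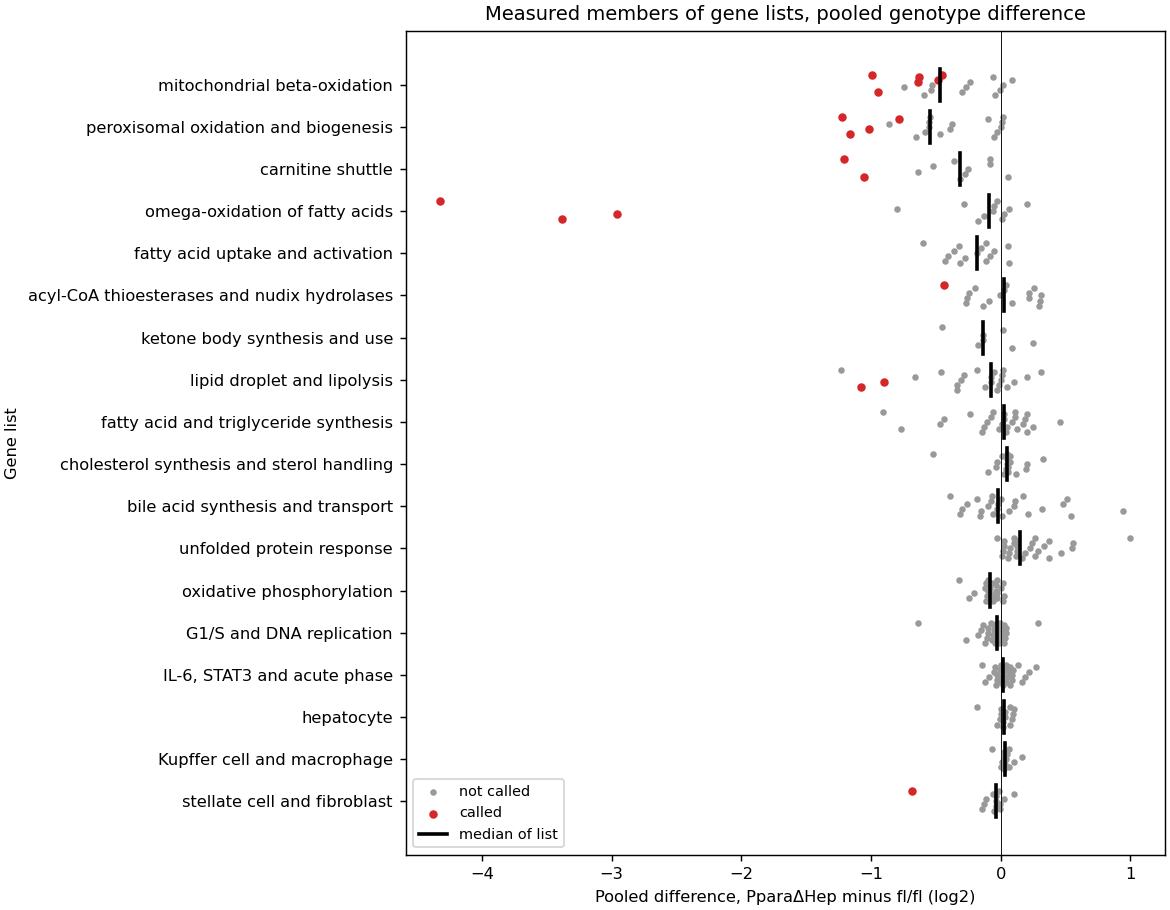
Pooled difference between PparaΔHep and fl/fl (x axis, log2) for the measured members of 18 gene lists (rows), with called genes in red, others in grey and the list median as a black bar. Medians of the mitochondrial (-0.47), peroxisomal (-0.55) and carnitine shuttle (-0.32) lists lie left of 0, the unfolded protein response list (0.15) lies right of it, and hepatocyte markers (0.02) lie near it.

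Of the acyl-CoA thioesterases and nudix hydrolases, which free or split coenzyme A esters, 1 of 17 measured genes was called and the median was 0.02, between -0.12 and 0.04 over the 23 other settings. Acot8, the peroxisomal thioesterase, fell by 0.44 ± 0.07 (adjusted p = 0.010). The cytosolic enzyme Acot1 stood at 4.54, 3.96, 4.61 and 5.21 in sham fl/fl against 5.56, 5.84, 5.83 and 5.57 in sham PparaΔHep, and at 5.59, 5.23, 4.94 and 5.38 in PHx fl/fl against 4.19, 4.11, 5.0 and 5.12 in PHx PparaΔHep. PparaΔHep was thus above fl/fl on every sham array and mostly below it after PHx, with a pooled difference of 0.22 ± 0.28 (adjusted p = 1.0).

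Its neighbours in the family had the same pair of signs. Acot2 differed by 0.83 after sham and -1.36 after PHx, Acot3 by 0.97 and -0.46, and Acot4 by 0.91 and -0.29. The unadjusted p of the interaction was 1.7e-04 for Acot1, 0.0012 for Acot2, 0.0145 for Acot3 and 0.0022 for Acot4, while the adjusted p was at least 0.286. The Acot genes are close copies of each other, and these 4 are not separate lines of evidence. Pdk4, a kinase that restrains glucose oxidation, was also at 1.45 after sham and -0.42 after PHx, with an interaction p of 0.0409. These 5 genes are named after their values were seen, and their pooled differences, from -0.27 to 0.52, average over opposite signs.

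Outside the fat lists the called genes were varied, and some were still genes of peroxisomes or fatty acid metabolism, such as Hsdl2, Pxmp4 and Hacd3 below. Serinc2, a transmembrane protein of the serine incorporator family, stood at 5.05, 5.29, 5.62 and 5.38 in sham fl/fl against 4.05, 4.11, 4.08 and 4.10 in sham PparaΔHep, and at 5.29, 4.67, 4.78 and 4.93 in PHx fl/fl against 4.08, 4.14, 4.23 and 4.47 in PHx PparaΔHep. All fl/fl arrays were above all PparaΔHep arrays, and the gene fell by 0.97 ± 0.11 (adjusted p = 8.9e-04). Its difference was larger after sham (-1.25) than after PHx (-0.69), with an unadjusted interaction p of 0.0078.

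Rarres1, a retinoic acid-responsive gene, fell by 1.33 ± 0.20 (adjusted p = 0.0082). Its genotypes were apart after PHx, at 5.62 to 6.36 in fl/fl and 3.70 to 4.85 in PparaΔHep, and overlapped after sham through PparaΔHep array 1 at 6.26 and fl/fl array 4 at 6.15. Hsdl2, a peroxisomal short-chain dehydrogenase, fell by 0.97 ± 0.16 (adjusted p = 0.0173) and Ephx2, the soluble epoxide hydrolase, by 0.64 ± 0.11 (adjusted p = 0.0203). The Hsdl2 call was lost without sham fl/fl array 4, and the Ephx2 call without that array, sham PparaΔHep array 1 or PHx PparaΔHep array 1.

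Igfbp2, a secreted binding protein of insulin-like growth factors, fell by 0.53 ± 0.10 (adjusted p = 0.0326) and was the only gene called of 26 on the growth factor and AKT list. Its call was kept in the leave-one-out fits only without sham fl/fl array 3 or PHx PparaΔHep array 4, and cyclic loess scaling gave an adjusted p of 0.0508. Dpt, a matrix protein of fibroblasts, fell by 0.68 ± 0.11 (adjusted p = 0.0111), at 2.60 to 3.51 in fl/fl and 2.17 to 2.75 in PparaΔHep, both near the median gene. It was the only one of 14 measured stellate cell and fibroblast markers that passed. The mean of that list ran from 3.93 to 4.06 in sham fl/fl and 3.83 to 4.03 in sham PparaΔHep, and from 3.81 to 3.97 and 3.67 to 3.91 after PHx, with 12 of 14 differences below 0 and a median of -0.04, and its part in the Dpt result was not tested.

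Both genes that rose lie at low levels. Mtmr11, a member of the myotubularin-related family, stood at 2.59, 2.69, 2.57 and 2.42 in sham fl/fl, 3.01, 2.91, 3.09 and 2.92 in sham PparaΔHep, 2.45, 3.00, 2.88 and 2.55 in PHx fl/fl and 3.06, 3.55, 3.66 and 3.11 in PHx PparaΔHep. PparaΔHep was above fl/fl within each operation, by 0.52 ± 0.10 in the pooled fit (adjusted p = 0.0397). Of the leave-one-out fits 11 lost the call, and only those without sham fl/fl array 2, PHx fl/fl array 2 or 3, or PHx PparaΔHep array 1 or 4 kept it.

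Snhg11, a non-coding host of small nucleolar RNAs named after its values were seen, stood at 2.78, 3.01, 2.94 and 2.82 against 3.42, 3.42, 3.41 and 3.23 after sham and at 2.64, 2.65, 2.52 and 2.65 against 2.95, 2.98, 2.79 and 2.85 after PHx, fl/fl first. It rose by 0.38 ± 0.05 (adjusted p = 0.0034) and kept its call without any single array. Other genes named after their values were seen were Qpct, a glutaminyl cyclase, which fell by 0.85 ± 0.10, Pxmp4, a peroxisomal membrane protein, which fell by 0.88 ± 0.13, Hacd3, a dehydratase of fatty acid elongation, which fell by 0.85 ± 0.14, and Agpat3, an acyltransferase, which fell by 0.27 ± 0.04. These had adjusted p from 8.9e-04 to 0.0145.

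The operations gave unequal numbers of adjusted calls. Fitted apart in the model with 1 mean per group, the genotype effect was called for 4 genes after sham (0.0133%, with 3 lower at 0.00995% and 1 higher at 0.00332%) and for 43 genes after PHx (0.143%), all of the latter lower. At an unadjusted p below 0.05 in limma the order was the other way, with 2792 of 30142 genes after sham and 2253 after PHx. Of the 58 pooled calls, 29 were called in neither operation alone, 26 after PHx and 4 after sham, and Acadvl in both. Pooling brought the median standard error of a gene from 0.0782 to 0.0567. The pooled list was not a superset, since 17 genes called after PHx missed the pooled threshold, Cidec among them.

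The count after PHx depended on single arrays: it was 127 without PHx fl/fl array 3, 14 without PHx PparaΔHep array 2, 17 and 21 without PHx fl/fl arrays 1 and 4, 28 without sham PparaΔHep array 1 or sham fl/fl array 1 or 3, 135 without the farthest PHx array of each genotype and 26 with the run of the title number as a block. The count after sham was 1 without sham PparaΔHep array 1 or 2 or sham fl/fl array 3, 2 without sham PparaΔHep array 4 or sham fl/fl array 1, and 24 with array weights.

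All 58 genes had the same sign in both operations. Selection by a pooled effect favours equal signs, so this count describes the selected genes and is not separate evidence of a shared effect. The shares of all genes with equal signs, or with a larger difference after PHx, were not counted. The median difference of the 56 lower genes was -0.51 after sham and -0.77 after PHx, and 44 of them were larger after PHx. A difference between the operations was tested as the interaction, and limma called 0 of 30142 genes, with 3400 (11.3%) at an unadjusted p below 0.05 and a smallest adjusted p of 0.286. Among the 58 called genes 11 (19%) had such an unadjusted p. Of these, 9 lower genes were larger after PHx, Creb3l3, Plin5 and Slc25a20 among them, and Serinc2 was larger after sham. The eleventh was Snhg11.

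**Figure D5:**
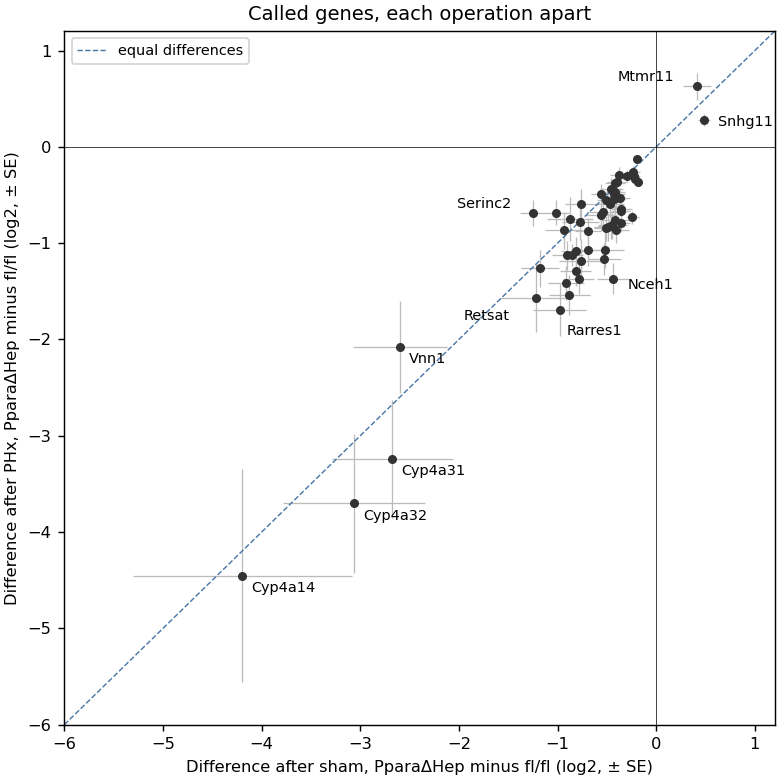
Difference between PparaΔHep and fl/fl after sham (x axis) against the same difference after PHx (y axis) for the 58 called genes, in log2 with SE bars and a dashed line of equality. Of the 56 lower genes 44 lie below the line, and the Cyp4a genes lie along it with the widest errors.

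The response of the 56 lower genes to the operation itself was mixed. In the additive model PHx and sham differed for 45.2% of all genes, 19.1% higher and 26.1% lower after PHx. Of the 56, 8 were higher after PHx, 14 lower and 34 not called. Plin5 was higher after PHx by 0.58 (adjusted p = 0.0016) and Decr2 by 0.43 (adjusted p = 0.0141), whereas Acads was lower (-0.87, adjusted p = 2.0e-07) and Rarres1 lower (-0.93, adjusted p = 0.0016).

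The genes most like Acadvl across the 16 arrays, after removal of the operation means, were Ech1 (Pearson r = 0.98), Hsd17b4 (0.97) and Etfdh (0.97). These correlations include the genotype difference that all of them have, and within the 4 groups they were lower, at 0.84, 0.82 and 0.76. The arrays share normalization and the PHx spread described above.

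The promoters of the lower genes were searched for the half-site pair known for PPARα with RXR, read as AGGTCA, 1 base of any kind and AGGTCA, on both strands and with up to 2 mismatches of the 12 fixed letters, in windows of 250 bases before to 50 after each start (RefSeq, GRCm38.p6). Of the 56 genes 43 had such a window, and 2 held a match (4.65%), against 4.18% of 17970 tested genes with a window. No lower gene matched with 1 mismatch or fewer. Both matches are shown with flanks, the 13-base match in capitals, because they belong to genes described above:
Creb3l3: tgtaagtAGGGGAGAGGTCAcacagacc
Slc25a20: tgaatgtAGGTGAAAGGTCGgcggagcc
The Creb3l3 stretch lies at chr10:81092780-81092807 on the minus strand, its match starting at -209 from the gene's start, and differs from the motif by T4G and C5G, with positions counted from the match's first base. The Slc25a20 stretch lies at chr9:108662135-108662162 on the plus strand, its match starting at 6, and differs by C5G and A13G. A match of this kind is a description of letters and not a measured binding site.

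Of the 46 lists, 34 of pathways and 12 of cell type markers, 11 held a called gene. Fatty acid and triglyceride synthesis (26 measured genes), cholesterol synthesis (18), bile acid synthesis and transport (25), DNA replication with the G1/S step (37), mitosis (24) and interleukin-6 signalling with the acute phase (32) had none called in limma, at 3, 2, 0, 6, 1 and 0 genes with an unadjusted p below 0.05. Their medians lay close to 0, although 29 of the 37 DNA replication genes were below 0, 5 of them at such a p. The mitosis list averaged 1.84 to 1.95 on every array, at the level of the negative controls, and 0 of its 24 genes averaged at least 4. Of the 37 DNA replication genes 7 averaged at least 4. For genes near the controls the lack of a call says little about a genotype effect. Other lists without a call leaned to 1 side. Above 0 were 27 of 28 genes of the unfolded protein response (8 at an unadjusted p below 0.05 on the higher side, median 0.15), 14 of 18 of cholesterol synthesis (1, median 0.05), 23 of 27 genes of xenobiotic metabolism (5, median 0.13, from -0.01 after sham and 0.26 after PHx), 17 of 22 male-biased liver genes (6, median 0.13) and 22 of 29 genes of coagulation and complement (4, median 0.02), where 2.41% of all genes had such a p. Below 0 were 21 of 25 oxidative phosphorylation genes (5, median -0.08). Among the genes the rule named from the lists without a call were Me1, malic enzyme, at -0.77 (adjusted p = 0.528), Hsd17b7 of cholesterol synthesis at -0.52 (adjusted p = 0.503), Abcb11, the bile salt export pump, at 0.54 (adjusted p = 0.929), and Cdk1 at -0.09 (adjusted p = 0.776).

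Of the marker lists only that of stellate cells and fibroblasts held a called gene, Dpt. None of the 14 measured hepatocyte markers or of the 13 Kupffer cell and macrophage markers was called or had an unadjusted p below 0.05, with medians of 0.02 and 0.03. Of the Kupffer cell and macrophage markers 12 of 13 were above 0, and their median was 0.14 after sham and -0.07 after PHx. The mean of the hepatocyte list ran from 9.85 to 9.97 in sham fl/fl and 9.89 to 9.97 in sham PparaΔHep, and from 9.69 to 9.77 and 9.64 to 9.84 after PHx, overlapping in each operation. Sinusoidal endothelial markers had a median of -0.08, with 12 of 14 below 0 and none called.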

How the data were processed

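Liver RNA was measured on 16 Affymetrix arrays, 1 per sample. The deposited log2 values of 72688 probe sets were made by the authors with RMA, per the submitters' processing notes, which corrects background, normalizes between arrays and summarises probes. For the software version and the genome build, the sources used here give nothing. RMA can leave low genes compressed toward the background. The platform annotation gave 30604 probe sets 1 symbol, 2146 several and 39938 none, and 827 symbols were updated through Entrez identifiers. The probe set with the highest mean stood for each of 30142 genes (355 had several). Probe sets with several symbols named no gene.

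limma 3.58.1 in R 4.3.3 (with data.table version 1.17.8) fitted operation plus genotype to the 16 arrays (13 residual degrees of freedom), with eBayes defaults. A model with 1 mean per group (12 degrees) gave each operation and the interaction. P-values were adjusted over all genes by Benjamini and Hochberg's method, and a gene was called below 0.05. The scripts were tested on simulated data. Array numbers follow sample order and pair no arrays.

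The members, lists and tests were chosen with earlier results of these data known. Of 935 listed genes 826 were measured. The rule for naming genes took Ppara and Cyp4a14, and the 15 largest decreases and increases among called protein-coding genes of equal sign in both operations. It also took up to 4 called members of a list by adjusted p (1 member where none was called), and the 3 genes most correlated with the smallest-p gene. Uncalled members of lists that held a called gene, such as Cpt1a, Hadha, Ehhadh and Plin2, lie outside the rule. They are not choices made before the values were seen. The rule covers 27 of the 58 called genes. Alternatives were other scalings, filters, variance settings, designs, a block on title numbers and arrays left out.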

Additional observations from a re-analysis of the deposited data

Results flagged for a closer look

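Retsat in sham fl/fl array 4 stood at 8.13 (log2), while the other 3 arrays of the group lay between 7.68 and 7.75. The gap was 0.847 of the group's range. Decr2 in sham PparaΔHep array 2 stood at 6.31, below the others at 6.53 to 6.55, with a gap of 0.9 of the range. In groups of 4, gaps of this size also arise by chance, at a rate that was not computed here. Some such gaps are therefore to be awaited among the many genes and groups described here. Decr2 kept its call without any single array, whereas the Retsat call was lost without sham fl/fl array 4.

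A few probe sets that the report's comparisons do not use also passed, at a smaller share than those used. In a fit of every probe set, 5 of 39938 unnamed probe sets passed (0.0125%, 3 lower and 2 higher), none of them among 6732 control probe sets. Of 2146 probe sets with several symbols 2 passed (0.0932%), both lower, with differences of -3.64 and -0.65. Of the 30142 probe sets used for genes, 0.129% passed in the same fit.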

How the results depend on the processing

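The pooled count of 58 stayed between 46 and 74 under cyclic loess, quantile and median scaling, the mean filter, protein-coding genes alone, every probe set, trend with robust variances, array weights and the average of group differences. It was 31 without the operation covariate, 34 with a 1.5-fold minimum and 95 without the farthest PHx array of each genotype (an added setting), and 39 to 81 on leaving out 1 array. Higher genes were 2 of 58, 6 of 74 with array weights and 23 of 95 in the added setting. After sham the count of 4 became 2 with the mean filter, 1 over every probe set, 24 with array weights and 7 without the farthest PHx arrays (1 to 6 on leaving out 1 array). After PHx the count of 43 became 135 without the farthest arrays (14 to 127 on leaving out 1 array), and the interaction count of 0 stayed at 0 to 2. With the run of the title number as a block (added), the pooled count was 44, and the counts were 4 after sham, 26 after PHx and 0 for the interaction. The Ppara difference of -0.84 ran from -0.996 to -0.71 on leaving out 1 array, and its permutation p from 0.0020 to 0.0192. No called gene reversed its sign, while named genes that were not called were left out of that count. Of the 58 called genes, 38 kept their call in all 16 leave-one-out fits. Of these, 35 also kept it in every other setting in which they were run. Genes averaging at least 4 were run in 8 such settings, and the rest in 7, because the mean filter removed them. No paired analysis was possible because the labels give no replicate numbers shared by the groups. For arrays the number of arrays and the distance of a signal from background limit the precision, and the causes of the moved counts were not tested.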

Other observations

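Genes of the unfolded protein response and amino acid stress leaned the other way from the fat lists. Of 28 measured genes 27 had a difference above 0, 8 had an unadjusted p below 0.05 and none passed the adjusted threshold in limma, where 55.1% of all genes lay below 0 and 2.41% were higher at such a p. The median was 0.15, and it lay between 0.11 and 0.21 over the 23 other settings, against -0.01 for all genes. The mean of the list separated the genotypes after sham, at 7.33 to 7.46 in fl/fl and 7.56 to 7.62 in PparaΔHep, and overlapped after PHx, at 6.56 to 6.97 and 6.70 to 7.46. Asns, asparagine synthetase, stood at 4.98, 5.63, 5.44 and 4.55 in sham fl/fl against 6.85, 6.13, 6.68 and 5.60 in sham PparaΔHep, and at 5.48, 5.34, 5.54 and 5.14 against 6.17, 6.20, 6.78 and 5.69 after PHx. The genotypes were apart after PHx and overlapped after sham by a small margin, with a pooled difference of 1.00 ± 0.20 (adjusted p = 0.0604). Asns passed among genes averaging at least 4 (adjusted p = 0.0280), with trend and robust variances (0.0499), with array weights (0.0281), and without sham PparaΔHep array 4 or PHx PparaΔHep array 4. Edem1 and Edem2, of endoplasmic reticulum degradation, were at 0.26 and 0.28, and Herpud1 at 0.56. Edem1, Edem2 and Herpud1 are named after their values were seen, and none of them was called.

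Without the farthest PHx array of each genotype, a setting chosen after seeing the data, 21 further genes were called higher and 17 further genes lower. Of the higher ones 1 is on a list, Asns at 1.12 (adjusted p = 0.0272), and those with the smallest p were Rcor1, H2ax and Myo9b, at 0.25, 0.27 and 0.37 (adjusted p = 0.0115, 0.0122 and 0.0147). Of the lower ones 4 are on lists, Fabp1 at -0.70, Hadha at -0.59, Cycs, cytochrome c, at -0.40 and Pex16, a peroxisome biogenesis factor, at -0.39. The other 13 are on none, and those with the smallest p were the predicted genes Gm11625 and Gm13252, at -0.46 and -0.45.

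Moxd1, a monooxygenase-like gene on the male-biased list, had the largest positive pooled difference of the 30142 genes, at 2.69 ± 0.74 (adjusted p = 0.365). It ran from 2.70 to 7.40 in sham fl/fl and from 6.66 to 9.49 in sham PparaΔHep, so the genotypes overlapped after sham.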
